A study of Rattus norvegicus with 24 samples.

Results

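Interferon-stimulated genes were followed in the lungs of rats that inhaled hexanal, an aldehyde of 6 carbons found in indoor air. The list held 44 genes, taken by symbol from the interferon response and not by their values. A probe was matched by accession for 40 of them, and 39 of these were bright enough to test among the 21261 genes or unnamed features of the array. Rigi, Xaf1, Gbp4 and Nlrc5 were not matched to a probe. Ifit1 was matched but did not pass the filter on dim signals, with its probe well above background on 4 of 6 control arrays, 4 of 6 at 600 ppm, 3 of 6 at 1000 ppm and 2 of 6 at 1500 ppm. Of the 39 genes tested, 37 were well above background on all 24 arrays, and the exceptions were Irf2 on 23 and Oasl on 20.

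The 24 rats were Fischer-344 animals, 7 to 8 weeks old at the start, with 6 in each of 4 groups and 3 of each sex in each group. The control group breathed filtered clean air, and the other groups breathed hexanal at 600, 1000 or 1500 ppm for 4 h a day on 5 days a week in a nose-only chamber. The titles and treatment labels of the rats and the methods give the doses in ppm, as used here, whereas the treatment protocol in the labels gives the same figures in mg/m3. That protocol names 5 weeks of exposure, and the methods name 4. Levels are log2 of the array signal minus the 75th percentile of that array, so that a difference of 0.58 is a 1.5-fold change. Each of the 6 slides held 4 arrays of 1 sex: slides with control rats also held 1 rat of the 600 ppm group, and no slide held control rats with rats of 1000 or 1500 ppm.

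Interferons are cytokines that cells release on sensing viral nucleic acid. They bind receptors that act through JAK kinases, and the STAT and IRF factors then switch on a shared set of genes through the interferon-stimulated response element, or, for interferon gamma, through the gamma-activated site. The products sense RNA, block viral replication, tag proteins with ISG15 and load peptides for T cells. The lung holds a basal level of this program at rest.

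The promoters of the members were searched for the elements named above. The genes were chosen for their interferon response, which runs through these elements, so finding them is no independent result. A promoter of 300 bases (250 before and 50 after the start, RefSeq, build GRCr8) was matched by symbol for 34 of the 44 genes. The interferon-stimulated response element, searched as GAAANNGAAA on both strands with overlaps allowed, stood in 23 of these 34 promoters, or 67.6%. Of all 33465 promoters in the table, 3.92% held it. The gamma-activated site, searched as TTCNNNGAA, which reads the same on both strands, stood in 10 of the 34 member promoters (29.4%) and in 8.87% of all promoters. There were 29 element matches in the member promoters, 21 of which began within the 100 bases before the start, and 6 promoters held 2 matches. A match describes the letters of these windows and is no measured binding site. The 5 promoters below are shown because their genes carry the values that follow: Irf7 and Ifi44 varied together between rats, Eif2ak2 and Gbp5 had among the smallest p-values at 600 ppm, and Gbp5 and Oas1b differed between females and males. Capitals mark the element on either strand, and in Oas1b 2 overlapping matches run together.
Irf7, chr1:205799974-205800273, minus strand: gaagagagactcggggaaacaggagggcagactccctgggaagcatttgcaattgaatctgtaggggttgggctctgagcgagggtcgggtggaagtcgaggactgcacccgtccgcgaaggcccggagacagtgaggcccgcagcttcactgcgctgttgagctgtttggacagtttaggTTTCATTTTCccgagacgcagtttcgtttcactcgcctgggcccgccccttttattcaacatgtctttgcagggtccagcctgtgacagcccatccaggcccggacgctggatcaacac
Ifi44, chr2:243303791-243304090, minus strand: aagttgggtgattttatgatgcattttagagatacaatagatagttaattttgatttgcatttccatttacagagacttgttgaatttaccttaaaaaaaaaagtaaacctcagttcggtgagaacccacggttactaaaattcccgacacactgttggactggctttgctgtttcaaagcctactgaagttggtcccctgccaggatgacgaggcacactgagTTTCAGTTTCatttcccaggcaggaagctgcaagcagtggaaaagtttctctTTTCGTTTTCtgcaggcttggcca
Eif2ak2, chr6:21940904-21941203, plus strand: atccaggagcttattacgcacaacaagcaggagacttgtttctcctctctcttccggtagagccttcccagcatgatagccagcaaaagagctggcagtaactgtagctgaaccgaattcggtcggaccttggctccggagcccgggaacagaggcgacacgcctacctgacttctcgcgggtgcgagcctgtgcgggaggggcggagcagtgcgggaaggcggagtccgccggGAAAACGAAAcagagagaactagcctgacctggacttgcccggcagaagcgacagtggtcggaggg
Gbp5, chr2:233910749-233911048, plus strand: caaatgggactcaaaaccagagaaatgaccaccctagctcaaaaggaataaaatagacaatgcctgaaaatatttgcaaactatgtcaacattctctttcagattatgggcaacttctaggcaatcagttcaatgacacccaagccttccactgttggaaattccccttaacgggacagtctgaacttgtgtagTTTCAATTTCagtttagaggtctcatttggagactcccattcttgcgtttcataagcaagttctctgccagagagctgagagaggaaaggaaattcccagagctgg
Oas1b, chr12:41395803-41396102, minus strand: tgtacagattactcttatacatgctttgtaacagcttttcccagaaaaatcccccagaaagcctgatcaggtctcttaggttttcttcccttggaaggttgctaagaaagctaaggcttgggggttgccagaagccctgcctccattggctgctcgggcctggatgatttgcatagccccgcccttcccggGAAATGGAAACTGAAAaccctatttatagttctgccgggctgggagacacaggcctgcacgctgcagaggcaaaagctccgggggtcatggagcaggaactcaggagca

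**Figure D1:**
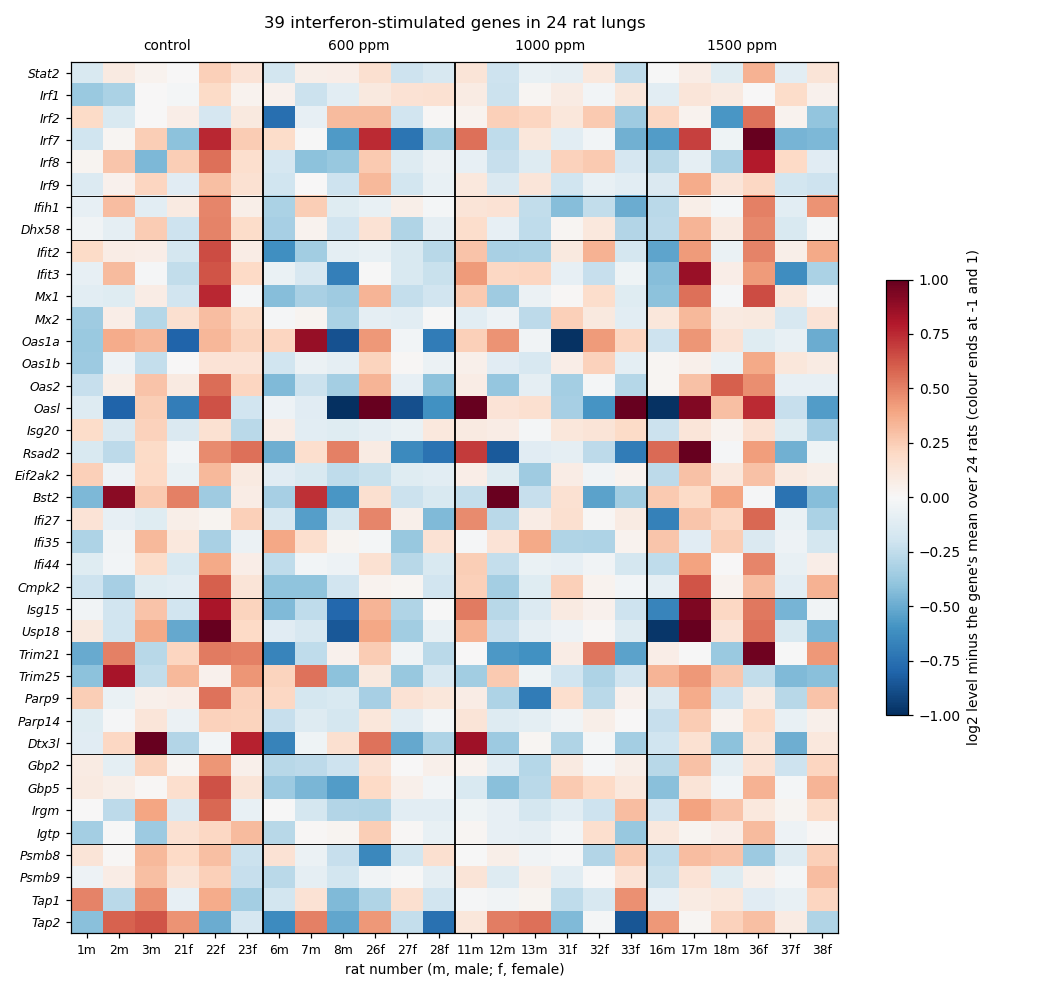
Level of each of the 39 interferon-stimulated genes (rows, grouped by role with thin lines) in each of the 24 rats (columns, grouped by dose), as log2 level minus the gene's own mean over all rats, from blue (lower) to red (higher). Single columns such as control rat 22 and 1500 ppm rats 17 and 36 are red over many rows, while no block of 6 columns stands apart.

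The first question was whether hexanal changed the level of these genes. No member passed the call of a 1.5-fold change with an unadjusted p-value under 0.05 by limma at any dose. At 600 ppm 0 of 39 members were called, against 0.607% of all features. At 1000 ppm it was again 0 of 39, against 1.63%, and at 1500 ppm 0 of 39, against 1.23%. After Benjamini-Hochberg adjustment over all features, no member passed at 0.05 in limma, where 0%, 0.0188% and 0.0047% of all features did at 600, 1000 and 1500 ppm. The smallest adjusted p-value of any member was 0.996, 0.516 and 0.779 at the 3 doses. The methods' t-test also called 0 members by the fold and p rule at each dose.

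In the fit without slides, the precision of the differences was enough to bound most of them. The 95% interval lay wholly within a 1.5-fold change in either direction for 22 of 39 members at 600 ppm, 25 at 1000 ppm and 31 at 1500 ppm. These were 56.4%, 64.1% and 79.5% of the members, against 75.8%, 72.4% and 73.5% of all features. The widest interval belonged to Oasl, an OAS-like protein gene that was dim on this array, which ran from -0.33 to 1.44 at 1000 ppm. With 6 rats a group, the number of arrays limits what smaller changes could be seen. With the slide as a block the median SE of the members was 0.20, 0.26 and 0.33 at the 3 doses, against 0.15 at each without it. The intervals of the fit with slides were not counted, so the bounds hold only where slides are left out.

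**Figure D2:**
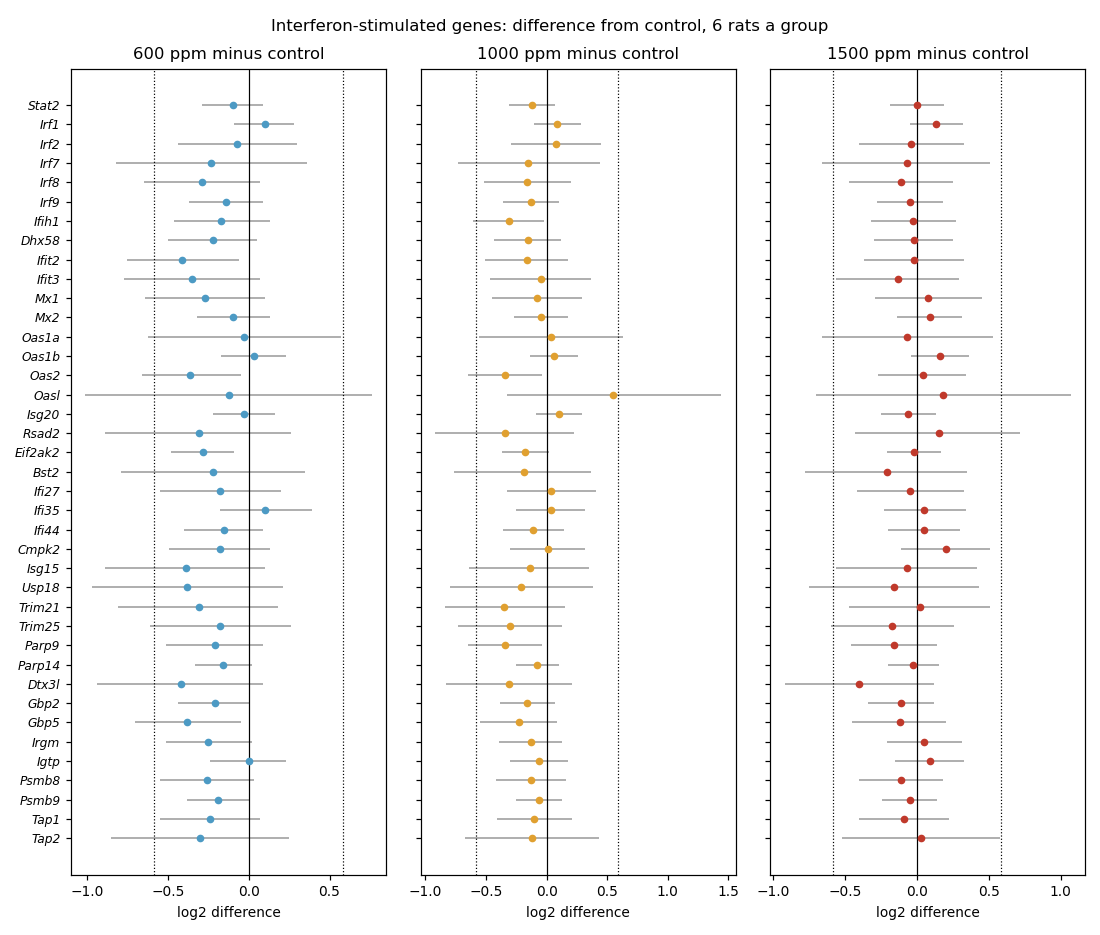
Log2 difference from control (x axis) for each interferon-stimulated gene (y axis, ordered by role) at 600, 1000 and 1500 ppm, with 95% intervals from the limma fit of 24 rats. Dotted lines mark a 1.5-fold change. At 600 ppm 36 of 39 points lie left of 0, at 1000 ppm 30 and at 1500 ppm 25.

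The members leaned to slightly lower levels at the low dose. At 600 ppm 36 of 39 had a mean below control, with a median log2 difference of -0.21, against 50.1% of all features and a median of 0. At 1000 ppm 30 of 39 lay below control, with a median of -0.13 (48.6% and 0.01 over all features). At 1500 ppm 25 of 39 lay below control, with a median of -0.03 (46.4% and 0.01). All 3 doses were compared with the same 6 control rats, and 1 of these, female rat 22, had high levels of many members. Without rat 22 the median at 600 ppm was -0.15, with 33 members below control. With the slide as a block the medians were -0.18, 0 and 0.19 at the 3 doses, so that at 1500 ppm 8 of 39 members, not 25, lay below control. In the fit without slides, the count of 25 became 16 without male 16 of the high dose and 30 without female 36. On the slide of the male controls, 29 of 39 members were lower in the single 600 ppm male than in the mean of the 3 controls, with a median difference of -0.23, and on the slide of the female controls 19 of 39 were, with a median of 0.

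At an unadjusted p-value under 0.05, 5 of 39 members were lower at 600 ppm (2.41% of all features) and 0 were higher (1.94%). These were Eif2ak2, Ifit2, Gbp5, Oas2 and Psmb9. At 1000 ppm 3 members were lower (3.57% of all features), namely Parp9, Oas2 and Ifih1, and 0 were higher (5.41%). At 1500 ppm 0 were lower (3.04%) and 0 were higher (3.91%). Without control rat 22, 1 member (Eif2ak2) was left under 0.05 at 600 ppm and 0 at 1000 ppm. At 1500 ppm 2 members, Cmpk2 and Irf1, came under 0.05 without that rat. Without rat 26 of the 600 ppm group the count at 600 ppm was 10. With the slide as a block 2 members (Eif2ak2 and Ifit2) were under 0.05 at 600 ppm, 0 at 1000 ppm and 1 (Oas1b, higher) at 1500 ppm. Without scaling between arrays the counts were 1 (Ifit2), 0 and 0. By the methods' t-test the counts under 0.05 were 3, 1 and 0 at the 3 doses.

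By role, all 7 genes of the ISG15, ubiquitin and ADP-ribose group lay below control at 600 and 1000 ppm (medians -0.31 and -0.30) and 6 of 7 at 1500 ppm (median -0.16). All 4 GTPase genes tested and all 4 antigen-processing genes lay below control at 600 ppm, with medians of -0.23 and -0.25. Of these Igtp was level with control, with means of 6.50 in controls and 6.49 at 600 ppm. The 16 antiviral effectors had medians of -0.18, -0.05 and 0.05 at the 3 doses. The 6 transcription factors had medians of -0.12, -0.13 and -0.04. The 2 RNA sensors, Ifih1 and Dhx58, had medians of -0.20, -0.23 and -0.03.

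Eif2ak2 encodes PKR, the kinase that halts translation on binding double-stranded RNA. Its lowest, median and highest log2 levels were -1.20, -1 and -0.81 in control rats and -1.39, -1.28 and -1.24 at 600 ppm. The ranges did not overlap, since all 6 rats of the low dose lay below the lowest control. At 1000 ppm the levels were -1.49, -1.13 and -1.06, and at 1500 ppm -1.40, -1.04 and -0.84, both within reach of the controls. The difference at 600 ppm was -0.28 ± 0.09 (SE, n = 6 rats a group, limma unadjusted p = 0.00561, adjusted p = 0.996). The exact permutation test of 6 rats against 6, two-sided, gave p = 0.00216, the smallest that it can give, and 0.0281 after adjustment over the 13 exact tests made. The members of all 13 tests were picked by their p-values or differences on the same arrays, which the adjustment does not cover. Eif2ak2 entered for having the smallest p-value of 39 members at 600 ppm, and its second probe differed by -0.05 only. On the slides that held both groups it was 0.24 log2 units lower in the 600 ppm male and 0.34 lower in the 600 ppm female than in the 3 controls.

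Ifit2, an RNA-binding antiviral protein gene, ran from -0.63 through a median of -0.38 to 0.20 in controls and from -1.07 through -0.67 to -0.53 at 600 ppm. Only 3 of the 6 exposed rats lay below all controls, so the groups overlapped. Its difference was -0.41 ± 0.17 (SE), with an exact permutation p of 0.00866 (0.0563 adjusted over 13 tests). At 1000 and 1500 ppm it differed by -0.16 and -0.02.

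Gbp5, a guanylate-binding protein that acts in inflammasome assembly, ran from -0.28 through -0.18 to 0.35 in controls and from -0.85 through -0.48 to -0.09 at 600 ppm. The 3 males of the low dose (-0.65, -0.75 and -0.85) and 1 female were below every control. The difference was -0.38 ± 0.16 (SE), with an exact permutation p of 0.0455 (0.122 adjusted). The second Gbp5 probe differed by -0.44, and the block for slide reduced the difference to -0.26 ± 0.15.

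Oas2, which makes the 2-5A that activates RNase L, was -3.76, -3.38 and -2.97 (lowest, median, highest) in controls, -3.97, -3.81 and -3.19 at 600 ppm and -3.92, -3.72 and -3.46 at 1000 ppm. The groups overlapped at both doses. The differences were -0.36 ± 0.15 and -0.34 ± 0.15 (SE), and the exact permutation p at 1000 ppm was 0.0281 (0.122 adjusted). At 1500 ppm the levels were -3.61, -3.38 and -2.93, with a difference of 0.04 ± 0.15. Under the slide block the differences were -0.21 ± 0.20 at 600 ppm and -0.12 ± 0.26 at 1000 ppm, with unadjusted limma p-values of 0.292 and 0.642.

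Psmb9, a catalytic subunit of the immunoproteasome, differed by -0.19 ± 0.09 at 600 ppm. Its levels ran from 1.89 to 2.42 in controls and from 1.85 to 2.12 at the low dose, so the groups overlapped.

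**Figure D3:**
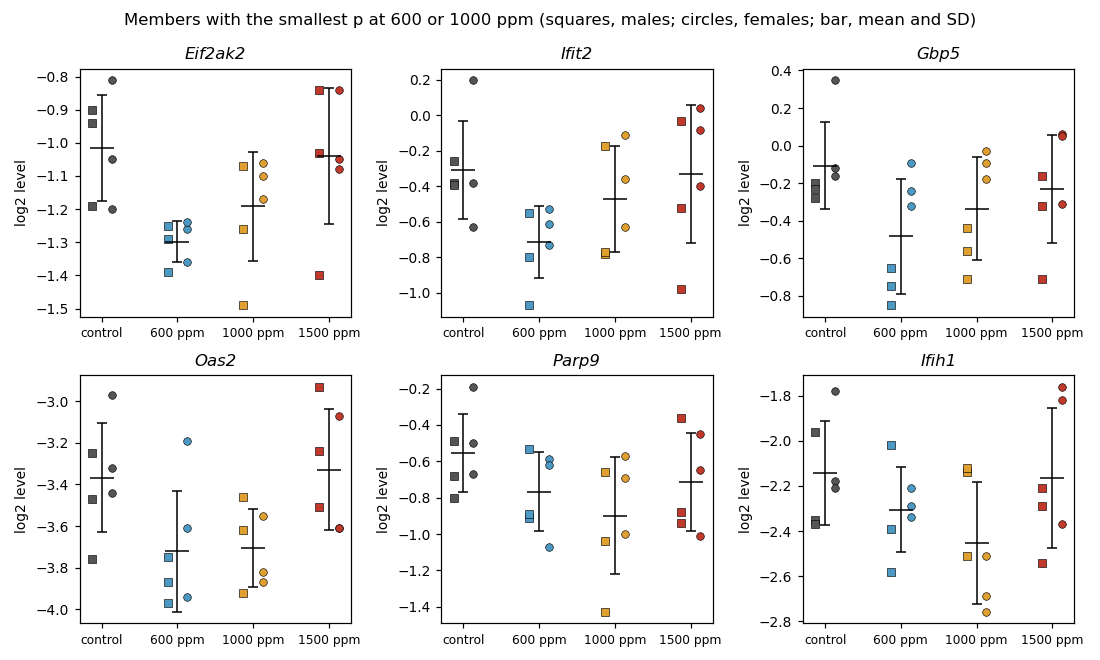
Log2 level (y axis) of 6 interferon-stimulated genes in control, 600, 1000 and 1500 ppm rats (x axis), 1 symbol per rat, with the mean and SD of each group of 6 as a bar. For Eif2ak2 the 6 rats at 600 ppm lie below all 6 controls, and the other genes overlap between control and every dose.

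At 1000 ppm the smallest p-values were those of Parp9, Oas2 and Ifih1. Parp9, a partner of the ubiquitin ligase encoded by Dtx3l, was -0.80, -0.59 and -0.19 (lowest, median, highest) in controls and -1.43, -0.85 and -0.57 at 1000 ppm. The groups overlapped, with 3 of 6 exposed rats below all controls. The difference was -0.34 ± 0.15 (SE), with an exact permutation p of 0.0563 (0.122 adjusted). Ifih1, which encodes the RNA sensor MDA5, was -2.37, -2.19 and -1.78 in controls and -2.76, -2.51 and -2.12 at 1000 ppm. Here 4 of 6 rats lay below all controls, and the difference was -0.31 ± 0.14 (SE), with an exact permutation p of 0.0541 (0.122 adjusted).

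At the high dose the members lay close to control in the fit without slides. With the slide as a block some moved away, in both directions. Irf7 went from -0.07 ± 0.28 to 1.03 ± 0.65 (SE), and Tap1 from -0.09 ± 0.15 to -0.60 ± 0.35. Oas1b, the OAS1 copy known in mice for flavivirus resistance, had 4.58, 4.92 and 5.08 in controls and 4.87, 5.00 and 5.32 at 1500 ppm. Its difference of 0.16 ± 0.10 (SE) gave p = 0.184 by exact permutation. Adding slides as a block raised the difference to 0.40 ± 0.16 (limma unadjusted p = 0.0191, adjusted p = 0.983). Irf1, a transcription factor induced by interferon gamma, differed by 0.13 ± 0.09 with an exact permutation p of 0.223, and its second probe by 0.01. Dtx3l had the largest difference of its role group, -0.40 ± 0.25, with levels of -4.04, -3.66 and -2.59 in controls and -4.24, -3.79 and -3.6 at 1500 ppm. Without control male 3, its highest rat, the difference was -0.23, and with slides as a block it was -0.09 ± 0.63.

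In the other role groups the largest differences at 1500 ppm were -0.21 ± 0.27 for Bst2 (tetherin, which holds budding virions at the membrane), -0.12 ± 0.16 for Gbp5, -0.11 ± 0.14 for Psmb8 (an immunoproteasome subunit) and -0.03 ± 0.14 for Ifih1. The smallest exact permutation p of these 4 was 0.457, that of Bst2. For Bst2 the levels were 2.09, 2.71 and 3.44 in controls and 1.80, 2.63 and 2.93 at 1500 ppm. With the slide as a block Bst2, Gbp5 and Ifih1 turned to 0.14, 0.10 and 0.01, and Psmb8 moved to -0.46 ± 0.34.

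A straight slope of the level on dose was also fitted. No member had an unadjusted p-value under 0.05 for the slope in limma, where 8.46% of all features did, and none passed after adjustment. The largest slopes were -0.24 per 1000 ppm for Dtx3l and 0.23 for Oasl. Without control rat 22, 2 members were under 0.05, Oas1b and Cmpk2.

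The second question was how these genes varied from rat to rat, since several spread widely within every group. Usp18, the protease that removes ISG15 from proteins, ran from -2.19 to -0.51 in controls, from -2.53 to -1.29 at 600 ppm, from -1.91 to -1.33 at 1000 ppm and from -2.65 to -0.61 at 1500 ppm. Isg15, the ubiquitin-like modifier itself, ran from 0.79 to 1.80, from 0.20 to 1.32, from 0.71 to 1.5 and from 0.32 to 1.92 in the same order. Both genes had their widest range in the high-dose group and their groups overlapped throughout.

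The same few rats held the high ends. Control female 22 was the highest of its 6 rats for 24 of the 39 members, against 16.3% of all features. Female 26 of the 600 ppm group was highest for 23 members (29.4% of all features). Male 11 at 1000 ppm was highest for 14 (13.4%), and at 1500 ppm male 17 and female 36 were each highest for 16 (28.3% of all features for female 36, and fewer for male 17). At the other end, male 16 at 1500 ppm was lowest of its group for 17 members, against 10.2% of all features. In rats 22, 17 and 16 the median member deviated from its group mean by 0.32, 0.26 and -0.25, where the median feature deviated by 0.01, -0.01 and 0.01.

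Irf7, the factor that amplifies type I interferon production, was set against every other member over the 24 rats, as deviations from the group means. This comparison was chosen after the levels had been seen. Its levels ran from 0.85 through 1.39 to 2.01 in controls, from 0.53 through 1.08 to 2 at 600 ppm, from 0.78 through 1.19 to 1.81 at 1000 ppm and from 0.70 through 1.01 to 2.34 at 1500 ppm. Of 38 relations tested, 15 had a permutation p under 0.05 after adjustment over the 38. The median Pearson r was 0.454 over the other members and 0.0377 over all features, and 12 members had an r of at least 0.6, as did 0.334% of all features.

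The closest members were Ifi44 (r = 0.869, Spearman rho = 0.799), Irf9 (0.849 and 0.837), a subunit of the ISGF3 complex, Usp18 (0.834 and 0.853), Dhx58 (0.823 and 0.761), an RNA sensor, and Isg15 (0.816 and 0.740). The permutation p-values of r were 1e-05, the smallest that 100000 permutations can give, for Ifi44, Irf9 and Usp18 and 2e-05 for Dhx58 and Isg15. Adjusted over the 38 relations, those of r lay between 0.000127 and 0.000152 and those of rho between 0.00019 and 0.00266. Without the 2 rats farthest from the median of Irf7 (36 and 26), the r of these 5 members lay between 0.766 and 0.840. Of the other members with an r of at least 0.6, Ifit3, Mx1 and Parp14 then had 0.801, 0.715 and 0.654. Those of Oas2, Stat2, Oasl and Ifi27 fell to 0.565, 0.517, 0.543 and 0.414. Within the 12 females Ifi44, Usp18 and Isg15 had r of 0.965, 0.848 and 0.862, and within the 12 males 0.785, 0.894 and 0.880. A slide holds 4 rats, too few for a value of its own.

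Mx1, an antiviral GTPase, and Ifit3 had an r of 0.806 and 0.783, with adjusted permutation p-values of 0.000326 and 0.000253. Male 17 had the highest Ifit3 at 1500 ppm, -1.35, while the group's lowest, female 37, had -2.84. Ifit3 in control female 22 was -1.59, the highest of its group, and the Mx1 level there of 2.43 was above the 2.33 of female 36.

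For other members a relation with Irf7 was not detected. The antigen-processing genes Psmb8, Tap1, Psmb9 and Tap2 had r of -0.202, -0.0989, 0.183 and 0.194, and the adjusted permutation p of each was at least 0.441. Psmb8 had r of -0.581 in females and 0.629 in males, and Psmb9 -0.0994 and 0.672, a difference between the sexes that was not tested. Without rats 36 and 26 the r of these 4 genes was 0.240, 0.0179, 0.143 and 0.0427, so that Psmb8 and Tap1 changed sign. Bst2 (r = 0.0811) and Trim25 (0.170) also stood outside. Bst2 was highest in male 2 among controls (3.44), male 7 at 600 ppm (3.27) and male 12 at 1000 ppm (3.53), and Trim25 was highest in those same rats of control, 600 and 1000 ppm, at 3.04, 2.76 and 2.48. Features that are not members, among them Prmt1 and Ing3, correlated more closely with Bst2 than Trim25 did.

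**Figure D4:**
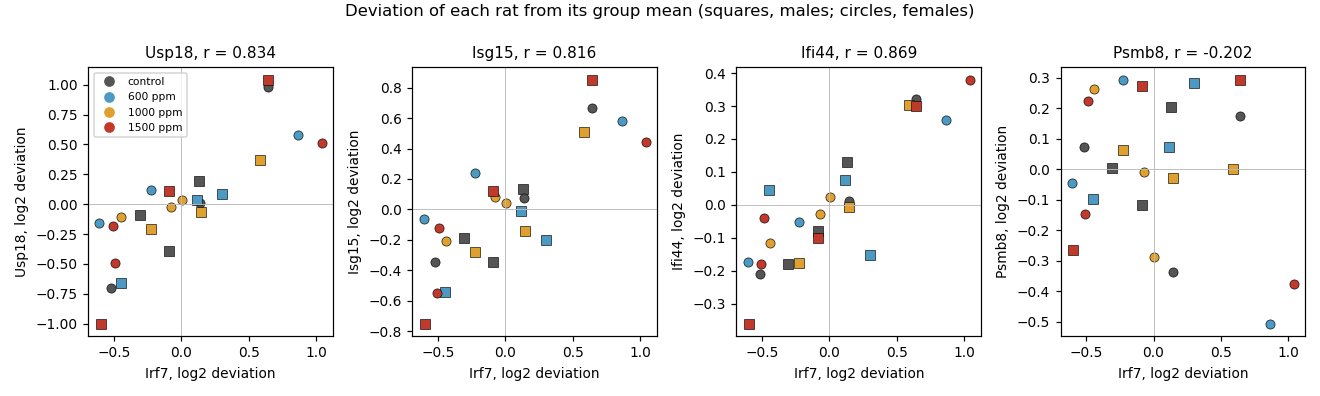
Deviation of each rat from its group mean for Irf7 (x axis, log2) and for Usp18, Isg15, Ifi44 and Psmb8 (y axes, log2), coloured by dose group, with squares for males and circles for females. The first 3 genes follow Irf7 over all 4 groups (r from 0.816 to 0.869), and for Psmb8 r is -0.202.

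Among all features, the gene with the pattern most like that of Irf7 over the 24 rats was Apol9a (r = 0.876), which is no member. The 20 closest features held 7 members, together with Oasl2, Oas1i, Lgals9, Lgals5 and Ube2l6 (r = 0.785, 0.765, 0.756, 0.748 and 0.732). Oas1a, Oas1b and Oas1i are close copies of one another, so their probes may share signal, which was not tested. The promoters printed above can be set beside this pattern. Irf7 and the members with an r of at least 0.6 over all 24 rats made 13 genes, and 9 had a promoter in the table. Usp18, Dhx58, Isg15 and Oas2 had none there, so several of the closest members are left out of this share. Of the 9 promoters 5 (55.6%) held the interferon-stimulated response element, against 16 of 23 (69.6%) of the other members tested.

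The third question was whether females and males differed. The effect of 1500 ppm did not differ between the sexes for any member at an adjusted p-value under 0.05 in limma, where 4.97% of all features did. At an unadjusted p-value under 0.05 3 members did (20.2% of all features): Mx2, Trim25 and Igtp. At 600 ppm 1 member did, Mx2 (5.02% of all features), and at 1000 ppm 2 did, Ifih1 and Igtp (9.43%).

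Mx2, an interferon-induced GTPase, was 5.40, 5.55 and 5.43 in control females and 5.34, 5.08 and 5.38 in females at 1500 ppm. In males it was 4.89, 5.31 and 4.96 in controls and 5.36, 5.57 and 5.33 at 1500 ppm. All 3 exposed females lay below the 3 control females, and all 3 exposed males lay above the 3 control males. The effect was -0.20 in females and 0.37 in males, a difference of -0.56 ± 0.17 (SE, limma unadjusted p = 0.00456, adjusted p = 0.0676). With quantile normalization Mx2 passed the adjusted threshold, while blocking on slide gave -0.65 with an unadjusted limma p of 0.131.

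Trim25, the ubiquitin ligase that activates RIG-I, had effects of -0.64 in females and 0.29 in males. Its levels were 2.54, 2.26 and 2.66 in control females and 1.97, 1.78 and 1.80 at 1500 ppm, which do not overlap. In males they were 1.81, 3.04 and 1.97 in controls and 2.56, 2.65 and 2.49 at 1500 ppm, which do. The difference of the effects was -0.93 ± 0.37 (SE, limma adjusted p = 0.157). Without control male 2 it was -1.32, and Mx2 and Trim25 then both passed the adjusted threshold. The slide block gave -0.77 for Trim25, with an unadjusted limma p of 0.435. Igtp, a GTPase of the IRG family, had effects of -0.13 in females and 0.31 in males, a difference of -0.44 ± 0.19 (adjusted p = 0.212), which turned to 0.54 with the slide as a block.

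Across all doses, 6 of the 39 members differed between the 12 females and the 12 males at an adjusted p-value under 0.05 in limma. Of these 5 (12.8% of the members) were higher in females, against 15.2% of all features, and 1 (2.56%) was lower, against 9.53%. Both shares of the members lay below those of all features. None differed by 1.5-fold with an unadjusted p-value under 0.05, where 3.86% of all features did. Every slide held 1 sex, and the effects of sex and of slide therefore cannot be told apart. With the slide as a random block 3 of the 6 passed, Gbp5, Oas1b and Irf8, and with normexp background correction Gbp5 alone did. Without scaling between arrays, where all features shifted by a median of -0.14, the differences of Gbp5, Oas1b, Irf8 and Irf1 were 0.24, 0.04, 0.21 and 0 and did not pass. The 4 members that passed without scaling were Trim21, higher in females, and Ifi35, Tap2 and Trim25, lower, so that the balance of 5 higher and 1 lower became 1 higher and 3 lower. Tap2 and Trim25 differed by -0.50 and -0.40 there, and by -0.33 and -0.24 with scaling.

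Gbp5 was -0.32, -0.10 and 0.35 (lowest, median, highest) in females and -0.85, -0.50 and -0.16 in males. The sexes overlapped, and the difference was 0.40 ± 0.07 (SE, adjusted p = 0.000459). Its second probe differed by 0.16. Oas1b was 4.84, 5.04 and 5.32 in females and 4.58, 4.86 and 4.99 in males, with a difference of 0.20 ± 0.05 (adjusted p = 0.0074). Irf8, a factor of macrophage and dendritic cell development, was -3.96, -3.58 and -3.00 in females and -4.24, -3.99 and -3.51 in males, with a difference of 0.37 ± 0.10 (adjusted p = 0.0077). Trim21, an antibody receptor inside cells, differed by 0.44 ± 0.14 (adjusted p = 0.0275) and Irf1 by 0.16 ± 0.05 (adjusted p = 0.0349). Ifi35 was lower in females, by -0.25 ± 0.08 (adjusted p = 0.0369). Irf1 was not stable across probes, since its second probe differed by -0.07.

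These differences lay beside differences in immune cell markers. Of 10 T cell markers 7 were higher in females at an adjusted p-value under 0.05, and their summed level ran from 3.12 to 5.80 in females and from 2.33 to 3.61 in males, relative to the 75th percentile of the array. Of 5 B cell markers tested 3 were higher, with sums of 4.03 to 6.58 in females and 2.82 to 5.88 in males. Of 9 NK and cytotoxic cell markers 5 were higher, with sums of 15.1 to 28.9 and 13.7 to 24.4. Of 9 macrophage markers 5 were lower in females, with sums of 9.83 to 13.2 against 11.3 to 16.3. Of 7 neutrophil markers 1 was lower and 0 were higher, and of 5 dendritic cell markers 1 was higher and 2 were lower. Over all features 15.2% were higher and 9.53% lower in females at that threshold. Of the neutrophil markers tested 6 were well above background on all 24 arrays, as were all tested markers of the other cells. The lists held 7 B cell, 11 macrophage, 10 neutrophil and 8 dendritic cell markers, and only those tested are counted above. The part of these markers in the member differences was not tested. In a piece of lung, fewer cells of a type and less RNA per cell cannot be told apart.

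**Figure D5:**
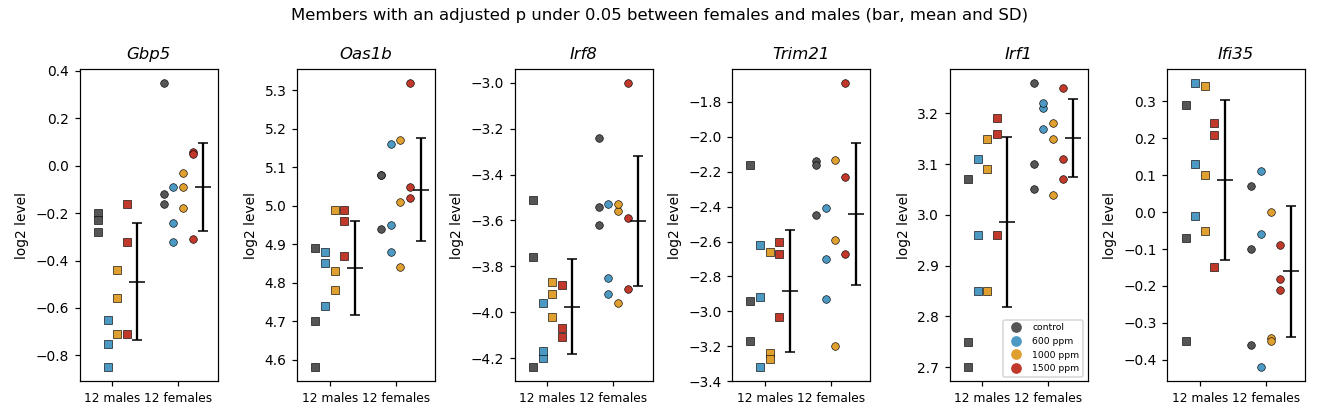
Log2 level (y axis) of the 6 interferon-stimulated genes with an adjusted p-value under 0.05 between females and males, 1 symbol per rat coloured by dose group, with the mean and SD of the 12 rats of each sex as a bar. Gbp5, Oas1b, Irf8, Trim21 and Irf1 are higher and Ifi35 is lower in females, and the sexes overlap in every gene.

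The rest of the pathway was read from a list of 57 further genes that passed the filter. None was called at any dose by the fold and p rule. At 600 ppm 41 of the 57 lay below control (median -0.05), at 1000 ppm 35 (median -0.04) and at 1500 ppm 27 (median 0.01). Of the ligands, Ifna2 and Ifna4 were measured, whereas Ifnb1, Ifng and Ifnk did not pass the filter. Ifna4 was -2.54, -2.23 and -1.94 in controls and -2.15, -2 and -1.88 at 1500 ppm, a difference of 0.23 ± 0.11 (limma adjusted p = 0.731). Ifna2 differed by 0.24 ± 0.21. The Ifna2 probe was dim, well above background on 5 of 6 control arrays, 2 of 6 at 600 ppm and 6 of 6 at 1000 and at 1500 ppm. Ifna2 and Ifna4 belong to a family of near-identical genes whose probes may share signal. They were higher in females by 0.53 ± 0.10 and 0.29 ± 0.05 (limma adjusted p = 0.000928 and 0.000455). Of all features 15.2% were higher in females at an adjusted p under 0.05, and sex and slide cannot be told apart.

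The 6 receptor and kinase genes tested were Ifnar1, Ifngr1, Ifngr2, Il10rb, Jak1 and Jak2. They differed from control by at most 0.18 in either direction at any dose. In the fit without slides, the 95% interval of each lay within a 1.5-fold change at all 3 doses. Ifitm1, an antiviral membrane protein gene, differed by 0.50 ± 0.14 at 1000 ppm (limma unadjusted p = 0.00174, adjusted p = 0.516), short of 1.5-fold. Among the brakes on the pathway, Socs1, the inhibitor of JAK signalling, had an effect of 1500 ppm that differed between the sexes. It was 0.19 in females and -0.77 in males, a difference of 0.96 ± 0.22 (limma adjusted p = 0.0161). No other of the 57 genes passed for this contrast, where 4.97% of all features did. The Socs1 probe was dim, with levels from -5.21 to -4.63 in controls. Control and 1500 ppm rats shared no slide, and no value with the slide as a block is given for Socs1. Ifitm1 and Socs1 were named here after their values were seen.

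The arrays themselves showed a 75th percentile of signal from 1701 to 3130 and between 70.7% and 81.9% of probes well above background, with 0 saturated spots. The 1701 was that of female 36 at 1500 ppm, which also had the highest Irf7 level, and the next lowest was 2313 in control female 23. The lung label was borne out by 6 of 7 listed type II alveolar, 5 of 6 type I alveolar and all 5 club cell markers. These were well above background on all 24 arrays, while Abca3 and Rtkn2 of the lists were not among the features tested. The summed level of 7 heart muscle markers varied widely, from 3.44 to 36.4 in controls and from 8.51 to 125 at 1000 ppm. Beside the member levels at 600, 1000 and 1500 ppm, the median difference from control of the heart muscle markers was 0.85, 2.02 and 0.63, and 3 of the 7 were called at some dose. That of the 5 club cell markers was 0.40, 0.89 and 0.30, and 2 were called. The T cell markers had medians of -0.25, 0.01 and 0.17 and the B cell markers -0.33, 0.01 and -0.02, with none called. The part of these markers in the member levels was not tested.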

How the data were processed

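Lung mRNA of 24 rats was measured on one-colour Agilent 4x44K arrays. The authors' deposited intensity values come from Agilent Feature Extraction 11.5.1.1, background-subtracted and detrended within each array by that software and not scaled between arrays. A deposited series table gives nearly identical intensities for the same arrays. Control spots were left out, as were outlier spots unless all spots of a probe were outliers on an array, and 42877 spots were averaged into 30367 probes. Of these, 18355 (60.4%) were matched by accession to a gene symbol through a RefSeq table of the rat assembly GRCr8.

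Tests used the log2 intensity after subtracting the 75th percentile of each array. A probe was kept if 5 of the 6 arrays in some group read it well above background, which left 23622. Genes with several probes were represented by the one with the highest mean. Groups were taken from the labels. Each dose was compared with control over all 24 arrays by lmFit and eBayes of limma 3.58.1 in R 4.3.3, with Benjamini-Hochberg adjustment over all 21261 features. A call needed a 1.5-fold change and an unadjusted p under 0.05, as in the methods. Sex differences of the dose effect were tested on 8 groups, and females against males with the dose as a factor. Single members had two-sided exact permutation tests, and relations with Irf7 permutation tests of 100000 draws within groups. The scripts were tested on simulated data.

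Values are given for the 3 members with the smallest p at each dose, those called for sex or for a sex difference of the 1500 ppm effect, and the largest difference at 1500 ppm in each role group. Other members named with values, among them Usp18, Isg15 and Irf7, were chosen after their values were seen. The members, lists and tests were chosen with earlier results of these data known. Alternatives were normexp background correction (offset 50, on the median spot signal), quantile normalization, median scaling, no scaling, 2 other filters, the mean of a gene's probes, the slide as a block, sex as a covariate, fits on 1 dose, the methods' t-test and leaving out each rat. The labels do not say that rats of a group came from separate litters or cages, and the p-values measure the spread between these rats. Methylation arrays of the same study were not analysed here.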

Additional observations from a re-analysis of the deposited data

Results flagged for a closer look

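In all, 3 checks of single rats stood out among 68 member and group combinations of 17 members, where chance gives about 1 in 20, and their causes were not tested. Gbp5 in control female 22 was 0.35, with the next control at -0.12 and the lowest at -0.28. Dtx3l in male 11 of the 1000 ppm group was -2.90, with the next rat at -3.73 and the lowest at -4.11. Mx2 in male 8 of the 600 ppm group was 4.93, with the next rat at 5.14 and the highest at 5.27. The gap to the nearest rat was 0.741, 0.685 and 0.631 of the whole range of the 6 rats.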

How the results depend on the processing

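No paired analysis was possible because rat numbers are not shared between groups. With 12 alternatives for each dose, 0 members were called at 600 and 1500 ppm in every one, and at 1000 ppm 1 (Dtx3l) was called with normexp. No alternative gave a member an adjusted p-value under 0.05 at a dose. The median member difference ran from -0.22 to -0.14 at 600 ppm and from -0.14 to 0 at 1000 ppm, and at 1500 ppm it was 0.19 with the slide as a fixed block. Leaving out each rat moved the medians within -0.25 to -0.15, -0.15 to -0.05 and -0.08 to 0.04. Leaving out 1 rat gave 0 to 2 members for the sex difference of the 1500 ppm effect, 1 to 5 at an unadjusted p, and 0 to 2 for the slope, and 4 to 8 between females and males. The alternatives for the medians and for counts of members below control were chosen after seeing the data. With quantile normalization 1 member passed for that sex difference (Mx2), and without scaling 1 (Igtp), with 5 at an unadjusted p. The slope count was 1 (Oas1b) with the slide as a fixed block. Between females and males, 6 members became 1 (Gbp5) with normexp and 3 with the slide as a random block. Without scaling, the median of all features shifted by -0.14 between females and males, by 0.11 at 1000 ppm and by -0.17 for the sex difference of the 1500 ppm effect. With normexp the last shift was -0.19 and that at 1000 ppm was -0.12. With the slide as a fixed block, differences at 1500 ppm turned to 0.14 (Bst2), 0.10 (Gbp5) and 0.01 (Ifih1), and the sex difference of the 1500 ppm effect to 0.54 (Igtp). Ifih1 at 1500 ppm ran from -0.11 to 0.05 as rats were left out. The female-male contrast could not be fitted with slides as a fixed block. The causes of these shifts were not tested, and the number of arrays limits the precision.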
